A study of Mus musculus with 6 samples.

Results

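The genes described here are 34 genes of the actin cytoskeleton in mouse liver: 3 actins, 5 chains of myosin II, 4 tropomyosins, 5 proteins that bind actin monomers or sever filaments, 6 proteins of the Arp2/3 complex and of filament capping, 5 crosslinkers and scaffolds, 3 focal adhesion proteins, and ezrin, radixin and moesin. They were grouped by function, and the rule that names them uses no measured difference. Their symbols were matched to the gene names of the array's probes, which gave 64 probes, and each gene was read from its probe with the highest mean over the 6 arrays. Of the 34 genes, 33 were among the 18901 genes compared, each well above background on all 6 arrays. Zyxin (Zyx) was left out of that comparison because its only probe had no usable spot on 1 array, and it is given separately.

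The livers came from male BALB/c mice that were 6 weeks old when the exposure began. MC-LR mice (n = 3) drank water with microcystin-LR (MC-LR), a cyclic peptide toxin of cyanobacteria, at 100 µg/L for 12 months, and control mice (n = 3) drank sterile water for 12 months. Each array held RNA of 1 liver, and each liver is labelled as coming from a separate mouse. One dose and one end point were tested in one sex and strain.

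Actin monomers assemble into filaments, and the other proteins set where filaments start, how long they grow, how they branch or bundle, and how myosin II pulls on them. In hepatocytes a belt of actin and myosin lies under the membrane of the bile canaliculus, while stellate cells, smooth muscle, Kupffer cells and other leukocytes of the liver each carry their own actin machinery. MC-LR is known to inhibit serine/threonine protein phosphatases and, in acute poisoning, to disrupt the actin filaments of hepatocytes. The arrays measured mRNA and not filaments.

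Signals are background-subtracted spot intensities, put on a log2 scale and quantile normalized. A difference is the mean of the MC-LR arrays minus the mean of the control arrays on that scale. Between 64.9% and 73.7% of spots per array were well above background, and no spot was saturated. Hepatocyte markers were present, with Alb, the gene of serum albumin, at 18.14 to 18.20 in MC-LR livers and 18.01 to 18.17 in control livers. The arrays lay on a pair of slides. Control 3 shared slide 2 with the 3 MC-LR arrays, and controls 1 and 2 were alone on slide 1. Controls 1 and 2 had 68.3% and 64.9% of spots well above background, control 3 had 73.7%, and the MC-LR arrays 71.1% to 73.4%. The median signal before normalization was 57.8 and 53.6 in controls 1 and 2, 79.8 in control 3 and 63.8 to 72.6 in MC-LR arrays. Control 3 also stood apart from the other controls for many of the actin genes, so the differences are given with and without it. Leaving it out makes slide and group coincide, and fitting slide as a block sets the MC-LR arrays, in effect, against control 3 alone.

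None of the 33 genes passed the adjusted threshold of 0.05 (limma with Benjamini-Hochberg adjustment over all genes), where 3 genes of the whole array, 0.0159%, did. At an unadjusted p under 0.05, 3 of the 33 were lower in MC-LR livers against 5.36% of all genes, and 0 were higher against 7.5% of all genes. The 3 were Acta2, Myl12a and Actn4. The 3 MC-LR values and the 3 control values did not overlap for 7 genes. Of these 5 were lower in MC-LR livers (Acta2, Myl12a, Cfl1, Gsn and Actn4), against 9.23% of all genes, and 2 were higher (Myh10 and Actn1), against 11.3%. The difference was below 0 for 25 of the 33 genes and above 0 for 8, while 51.4% of all genes were below 0. The median difference was -0.23 over the 33 genes and -0.01 over all genes. Differences were small: 31 of the 33 were under 0.5 in size, and the 95% interval of 30 included 0.

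**Figure D1:**
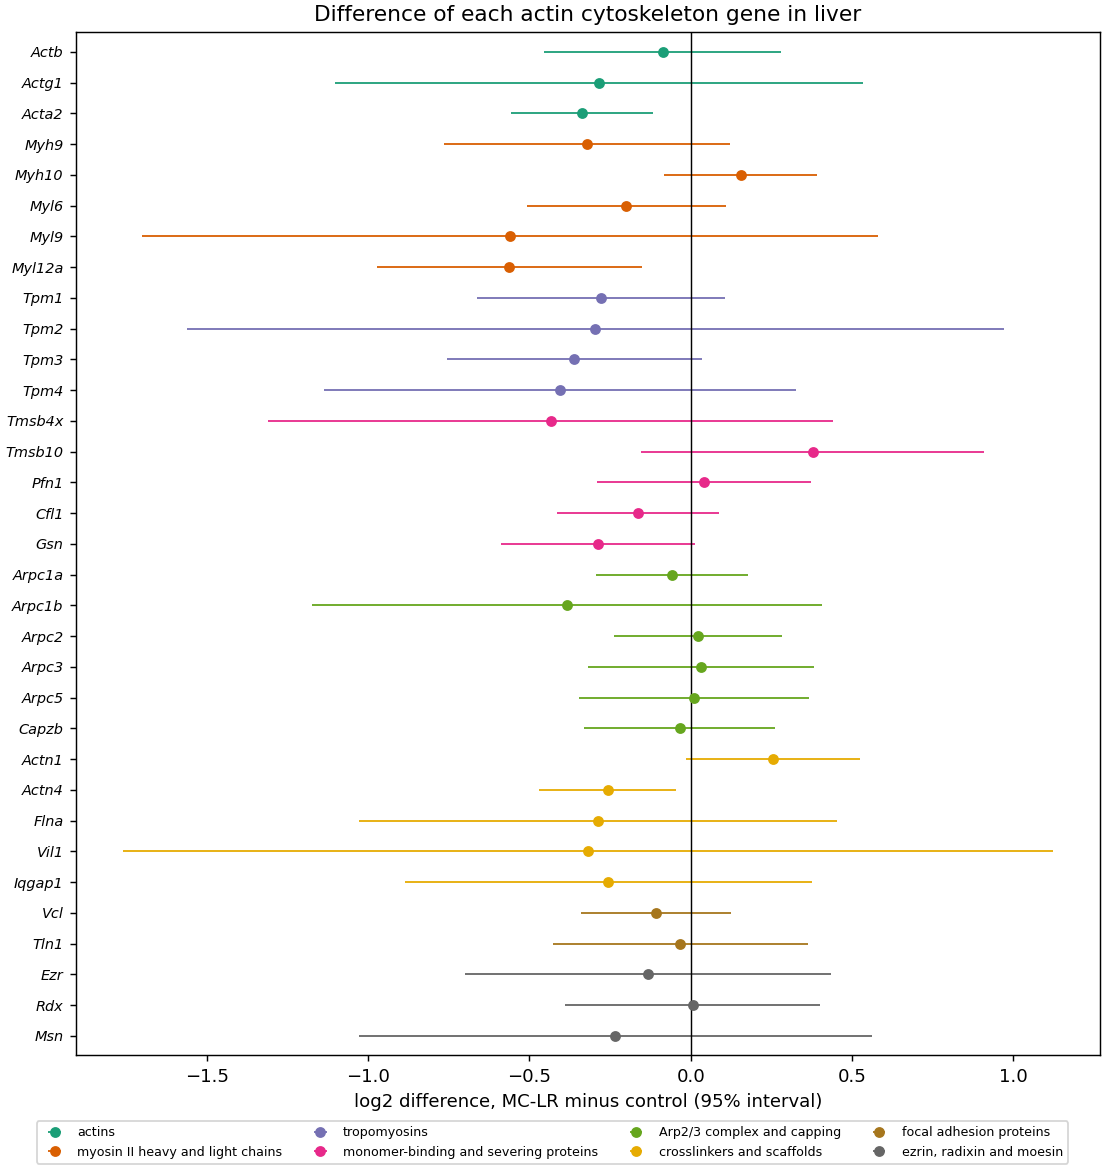
Log2 difference (MC-LR minus control) of the 33 actin cytoskeleton genes, grouped by role, with bars for the 95% interval of the limma fit (n = 3 livers each). The points lie between -0.56 and 0.38, 25 of them left of 0, and the intervals of Acta2, Myl12a and Actn4 alone leave 0 out.

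The size of the median depended on single arrays, most of all on control 3. Without MC-LR 1 it was -0.12, with array weights -0.08, and with the mean of a gene's probes -0.13. Without control 3, 18 of the 33 genes were below 0 and 15 above, with a median of -0.04 over the 33 genes. With slide as a block, which leaves control 3 as the effective control, 27 were below 0 and the median was -0.33, against 0.02 over all genes. In that fit 12 genes were lower at an unadjusted p under 0.05, against 8.12% of all genes, 0 were higher, against 7.97%, and none passed after adjustment. Without control 3, 3 genes were lower at an unadjusted p under 0.05 (10.1% of all genes) and 2 higher (10.7%).

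Smooth muscle actin, Acta2, had the smallest p of the 33 genes. This isoform is carried by vascular smooth muscle and by activated hepatic stellate cells. Its signal was 10.84, 10.96 and 10.93 in MC-LR livers, against 11.24, 11.20 and 11.29 in control livers. At the probe used, every MC-LR value lay below every control value, and control 3 was close to the other controls. The means were 10.91 ± 0.06 in MC-LR livers and 11.25 ± 0.05 in control livers (SD, n = 3 each), a difference of -0.34 ± 0.09 (SE) or 0.792-fold. It did not pass (adjusted p = 0.271, limma, range over its alternatives 0.0540 to 0.712). Leaving out any 1 array gave differences of -0.36 to -0.30, and the slide block gave -0.38. In whole liver, fewer cells of a type and less RNA per cell cannot be told apart, for this gene and for those below.

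The Acta2 probe, of 60 bases, is placed at chr19:34322995-34326249 (mm9, minus strand), a span of 3255 bases, so its target crosses at least 1 intron. It is shown because actin coding sequences are much alike, and whether mRNA of other actins binds to it was not tested.
Acta2 probe: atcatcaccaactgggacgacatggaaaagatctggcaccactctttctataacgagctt
Of the other Acta2 probes that passed the background filter, one differed by -0.80, with overlapping groups, and one by 0.21. The former had 7.15, 7.90 and 8.79 in MC-LR livers and 8.67, 10.17 and 7.41 in control livers. There control 2 was the highest array and control 3 the lowest control, unlike at the probe used.

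The cytoplasmic actins form most filaments of cells other than muscle. Beta-actin, Actb, gave 11.25, 11.02 and 11.25 in MC-LR livers and 11.39, 11.40 and 10.996 in control livers. The lowest value of all was control 3, and the groups overlapped. The difference was -0.09 ± 0.15 (SE), with a 95% interval of -0.45 to 0.28 and a range over the 6 arrays of 0.40, which is 1.32-fold. Gamma-actin, Actg1, gave 12.84, 13.27 and 12.67 in MC-LR livers and 12.93, 12.78 and 13.91 in control livers. Control 3 was the highest array, 1.06 above the mean of controls 1 and 2, which is 2.08-fold. The difference was -0.28 ± 0.33 (SE), 0.07 without control 3, and -0.99 with slide as a block. Both genes are often used as stable references, and here Actg1 spanned 2.38-fold over the 6 livers.

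**Figure D2:**
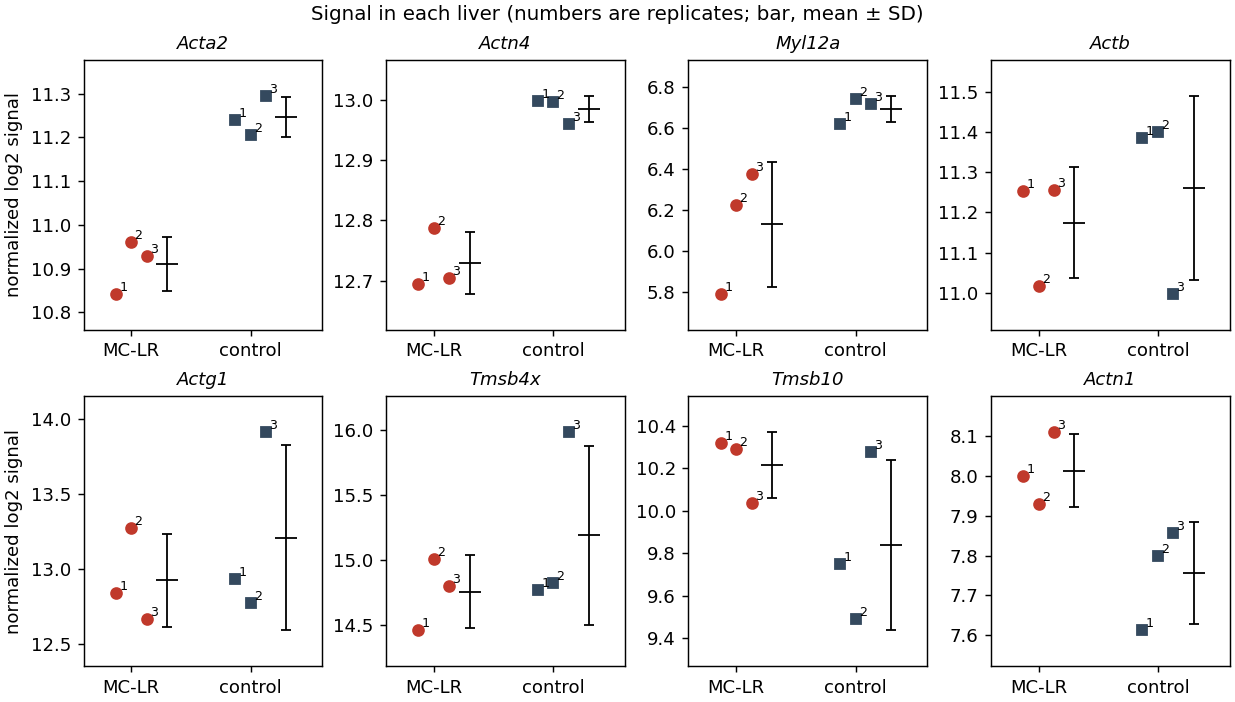
Normalized log2 signal of 8 genes in each liver, MC-LR left and control right, numbered by replicate, with mean ± SD (n = 3 each) and axes that do not start at 0. Acta2, Actn4, Myl12a and Actn1 show groups that do not overlap, while for Actg1, Tmsb4x and Tmsb10 control 3 lies far above controls 1 and 2, and for Actb below them.

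Myosin II is built of heavy chains with the motor and of light chains. Myl12a, a regulatory light chain whose phosphorylation switches the motor on, had 5.79, 6.23 and 6.38 in MC-LR livers, against 6.62, 6.74 and 6.72 in control livers. All MC-LR values lay below the control values, and MC-LR 1 was the lowest. The difference was -0.56 ± 0.17 (SE), or 0.678-fold, and did not pass (adjusted p = 0.301, limma, range over its alternatives 0.0601 to 0.671). Its probe, the only one for this gene, lies at chr17:71343375-71343434 (mm9). Leaving out 1 array gave -0.68 to -0.39, and normexp background correction gave -0.26.

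The smooth muscle light chain Myl9 differed by as much, but its livers were spread. It had 9.33, 9.78 and 10.45 in MC-LR livers and 10.20, 11.30 and 9.74 in control livers. Control 2 was highest, control 3 lay within the MC-LR values, and the whole range of 1.97 was 3.91-fold. The difference of -0.56 ± 0.47 (SE) was -0.89 without control 3 and 0.11 with slide as a block. Myl6, the essential light chain that helps hold the motor's lever, differed by -0.20 ± 0.13 (SE). Among the non-muscle heavy chains, Myh10 was one of the 2 genes with every MC-LR value above the controls, at 8.77, 8.68 and 8.87 in MC-LR livers against 8.65, 8.55 and 8.64 in control livers. That difference was 0.15 ± 0.10 (SE, adjusted p = 0.541, limma). Its paralogue Myh9 differed by -0.32 ± 0.18 (SE), -0.16 without control 3.

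Tropomyosins lie along the filament and govern which other proteins reach it. The difference was below 0 for 4 of the 4, with a median of -0.33. Tpm3 had 14.27, 14.58 and 14.14 in MC-LR livers and 14.65, 14.51 and 14.90 in control livers. MC-LR 2 lay between the controls, and the difference was -0.36 ± 0.16 (SE, adjusted p = 0.418, limma). A further Tpm3 probe differed by 0.14. Tpm2, the muscle-type isoform, followed the order of Myl9, with 6.16, 6.45 and 7.29 in MC-LR livers and 6.59, 7.97 and 6.23 in control livers. Its difference of -0.30 ± 0.52 (SE) was 0.41 with slide as a block. Tpm4 differed by -0.40 ± 0.30 (SE), and by -0.11 without control 3, which lay 0.90 above the other controls. Tpm1 differed by -0.28 ± 0.16 (SE).

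The beta-thymosins hold actin monomers in reserve. Tmsb4x had 14.46, 15.01 and 14.80 in MC-LR livers and 14.77, 14.82 and 15.99 in control livers. Controls 1 and 2 lay within the MC-LR values, and control 3 stood 1.19 above them, the largest such gap among the 33 genes, which is 2.29-fold. The difference was -0.43 ± 0.36 (SE), -0.04 without control 3, and -1.23 in the fit that blocks on slide (adjusted p = 0.154, limma). Tmsb10 gave the largest difference above 0. It had 10.32, 10.29 and 10.04 in MC-LR livers and 9.75, 9.49 and 10.28 in control livers, with control 3 inside the MC-LR values. Its difference was 0.38 ± 0.22 (SE), 0.60 without control 3 (adjusted p = 0.125, limma), and -0.06 with slide as a block.

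Gelsolin, Gsn, which cuts filaments and caps their ends when calcium rises, had 11.67, 11.58 and 11.62 in MC-LR livers and 11.73, 11.90 and 12.11 in control livers. The groups did not overlap, yet the lowest control was only just above the highest MC-LR liver. The difference was -0.29 ± 0.12 (SE, adjusted p = 0.403, limma). Cofilin 1, Cfl1, which severs ageing filaments, also had groups apart, with 13.33, 13.51 and 13.46 in MC-LR livers and 13.56, 13.53 and 13.70 in control livers. Its difference was -0.16 ± 0.10 (SE), and its second probe differed by 0.13. Profilin 1, Pfn1, which hands monomers to growing ends, differed by 0.04 ± 0.14 (SE).

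The Arp2/3 complex starts filament branches, and Capzb is a subunit of the protein that caps their growing ends. Of these 6 genes, 5 stayed within 0.06 of 0 in size. Arpc1a differed by -0.06, with a 95% interval of -0.29 to 0.18, and its 6 arrays spanned 0.22. Arpc2 differed by 0.02, with an interval of -0.24 to 0.28. Arpc3 (0.03), Arpc5 (0.01) and Capzb (-0.03) were alike in size. Arpc1b, the form of the Arpc1 subunit that is abundant in blood cells, was the exception, with 14.41, 14.99 and 14.61 in MC-LR livers and 14.71, 14.70 and 15.74 in control livers. Control 3 lay 1.03 above the other controls. The difference of -0.38 ± 0.32 (SE) was -0.04 without control 3 and -1.07 with slide as a block.

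The paralogous alpha-actinins, which crosslink filaments, lay in opposite directions, each with the groups apart. Actn4 had 12.69, 12.79 and 12.70 in MC-LR livers, against 12.999, 12.998 and 12.96 in control livers. The means were 12.73 ± 0.05 in MC-LR livers and 12.99 ± 0.02 in control livers (SD, n = 3 each), and control 3 was close to the other controls. The difference was -0.26 ± 0.09 (SE), or 0.837-fold (adjusted p = 0.331, limma, range over its alternatives 0.0695 to 0.697), at the only Actn4 probe, chr7:29678289-29678348 (mm9). Actn1 had 7.9995, 7.93 and 8.11 in MC-LR livers and 7.61, 7.80 and 7.86 in control livers. Its difference was 0.26 ± 0.11 (SE, adjusted p = 0.405, limma). Both kept their sign under every alternative run, with slide as a block giving -0.23 for Actn4 and 0.16 for Actn1. Whether the paralogues differ from each other in response was not tested.

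The other crosslinkers and scaffolds stood high in control 3 or varied between livers. Filamin A, Flna, which joins crossing filaments, differed by -0.29 ± 0.30 (SE), and by 0.01 without control 3. Iqgap1, a scaffold for small GTPases, differed by -0.25 ± 0.26 (SE), and by 0.02 without control 3. Villin, Vil1, which bundles the filaments of microvilli, had 5.88, 7.23 and 5.13 in MC-LR livers and 6.03, 6.01 and 7.15 in control livers. One liver in each group was high, the whole range of 2.09 was 4.26-fold, and the difference of -0.32 was smaller than its SE of 0.59.

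Focal adhesions tie filaments to the matrix through integrins. Vinculin, Vcl, differed by -0.11 ± 0.10 (SE), and a second probe by 0.12. Talin 1, Tln1, differed by -0.03 ± 0.16 (SE). Zyxin, which marks adhesions under tension, had 13.01 and 13.27 on the 2 usable MC-LR arrays and 12.55, 12.55 and 13.31 in control livers. The spot of MC-LR 3 carried an outlier flag. Leaving it out gave a difference of 0.34 ± 0.28 (SE, adjusted p = 0.652, limma), and keeping it, at 13.58, gave 0.48 ± 0.26 (SE, adjusted p = 0.486). Its probe lies at chr6:42308330-42308389 (mm9).

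Ezrin, radixin and moesin link filaments to the plasma membrane, and radixin is the member that prevails in hepatocytes. Radixin, Rdx, differed by 0.01 ± 0.16 (SE), with control 3 the lowest array, 0.47 below the mean of controls 1 and 2. Moesin, Msn, which is typical of leukocytes and endothelium, had 7.64, 8.03 and 8.20 in MC-LR livers and 7.84, 7.85 and 8.89 in control livers. Control 3 stood 1.05 above the other controls, and the difference of -0.23 ± 0.33 (SE) was 0.12 without it. Ezrin, Ezr, the epithelial member, differed by -0.13 ± 0.23 (SE), and control 3 was again the highest.

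**Figure D3:**
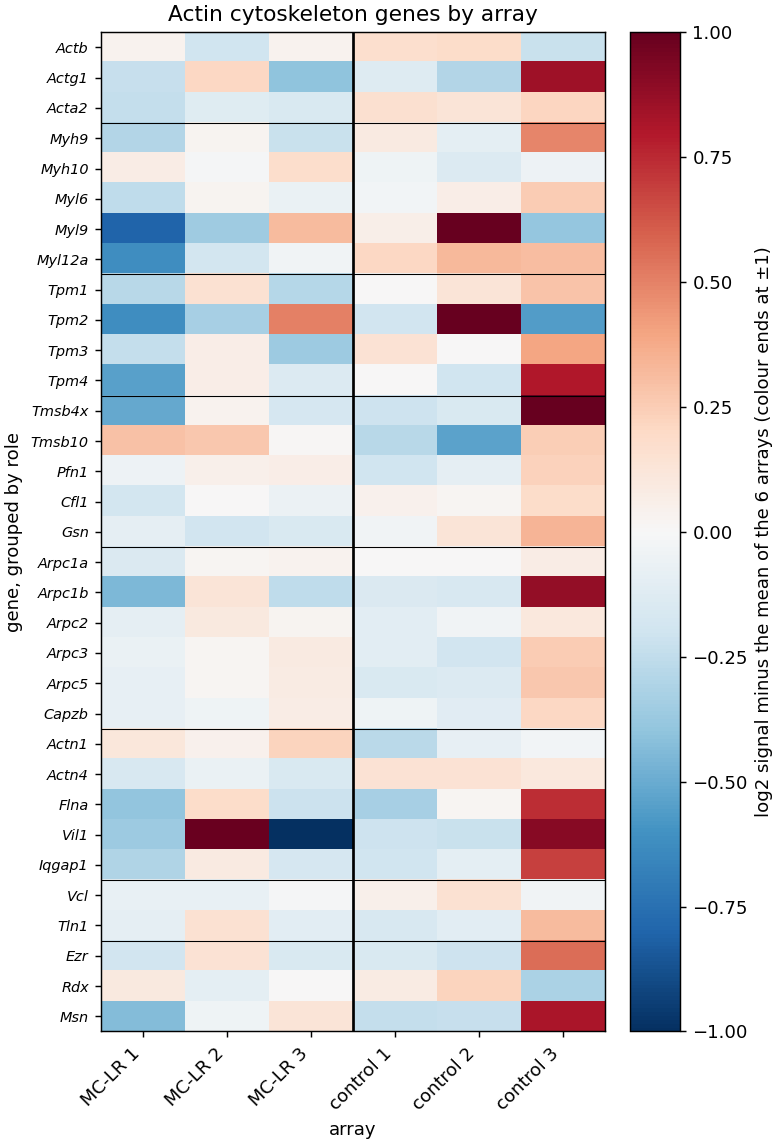
Log2 signal of the 33 genes (rows, by role) in each of the 6 livers (columns, MC-LR left), coloured by the deviation from the gene's mean over the 6 arrays, with colour ending at ±1. The control 3 column is the darkest red, being highest for 22 genes (21.1% of all genes). MC-LR 1 is lowest for 16, for which no share over all genes was counted.

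Much of the spread among the 33 genes followed single livers. Control 3 was the highest of the 6 arrays for 22 of the 33 genes (21.1% of all genes) and lay above controls 1 and 2 for 25 (39.3% of all genes). The median deviation of the genes from their own means was 0.26 in control 3, -0.04 and -0.08 in controls 1 and 2, and -0.19, 0.03 and -0.06 in MC-LR 1, 2 and 3. In 25 of the 33 genes control 3 differed from controls 1 and 2 by more than the MC-LR livers differed from the controls, as it did in 63.3% of all genes.

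Leukocyte markers were high in the same liver. The summed linear signal of 11 Kupffer cell and macrophage markers was 105300 to 130700 in MC-LR livers and 120400 to 218400 in control livers, and control 3 was highest for 10 of the 11. Lyz2 had the largest signal in that sum. The exception was Clec4f, for which control 3 was the lowest control. It had 12.50, 13.15 and 13.10 in MC-LR livers and 13.35, 13.27 and 13.09 in control livers. For 11 measured markers of lymphocytes and neutrophils the sum was 6217 to 12980 in MC-LR livers and 10680 to 18980 in control livers. Control 3 was highest for 8 of these, and Ncr1 and Ly6g were not above the background filter. Of all genes, 21.1% were highest in control 3. Adgre1, the macrophage antigen F4/80, had 11.14, 11.52 and 11.88 in MC-LR livers and 11.68, 11.81 and 13.11 in control livers. The genes with the widest control 3 gaps upward, Tmsb4x, Vil1, Actg1, Msn, Arpc1b, Tpm4, Flna and Iqgap1, were high in that liver together with these markers. Markers of other cells were high there too. Of 8 bile duct and mesothelial markers 7 lay above controls 1 and 2 in control 3, with a median gap of 1.02, and of 12 stellate cell and fibroblast markers 11 did, with a median gap of 0.48, against 0.77 for the Kupffer cell and macrophage markers. Of all genes, 39.3% lay above controls 1 and 2 in control 3. The part of any of those cells in the differences was not tested.

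Other markers followed other genes across the livers. For 9 smooth muscle markers the sum was 3627 to 5801 in MC-LR livers and 5277 to 7818 in control livers, with 1 of the 9 (Cspg4) lower at an unadjusted p under 0.05. Over all genes, 5.36% were lower at that p. Cnn1, a smooth muscle calponin, had 4.35, 5.30 and 7.93 in MC-LR livers and 6.51, 9.24 and 4.29 in control livers, the high livers being the ones high for Myl9 and Tpm2. Only 5 of the 9 smooth muscle markers were highest in control 2. Synpo2 and Rgs5 were highest in control 3, Actg2 in MC-LR 3 and Smtn in MC-LR 2. Tagln, a further smooth muscle gene, differed by -0.63 ± 0.26 (SE, adjusted p = 0.394, limma), beside the -0.34 of Acta2. For 8 measured bile duct and mesothelial markers the sum was 4589 to 11670 in MC-LR livers and 6993 to 13490 in control livers, with 1 of the 8 (Sox9) lower at that p and Cftr and Upk3b not above the filter. Spp1 had the largest signal in that sum. Of the 8 markers, 4 were above 0 and 4 below, with a median difference of 0.05. Krt19, a bile duct keratin, had 5.89, 6.80 and 5.94 in MC-LR livers and 5.96, 5.22 and 6.97 in control livers, highest in the livers that were high for Vil1. Sox9 and Wt1 of the same list did not follow Vil1. Sox9 had 8.69, 8.71 and 8.76 in MC-LR livers and 9.82, 9.13 and 9.39 in control livers. Wt1 had 5.36, 5.11 and 4.36 in MC-LR livers and 4.16, 5.33 and 5.53 in control livers. These example markers were picked after their values were seen, and the part of any cell type was not tested.

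**Figure D4:**
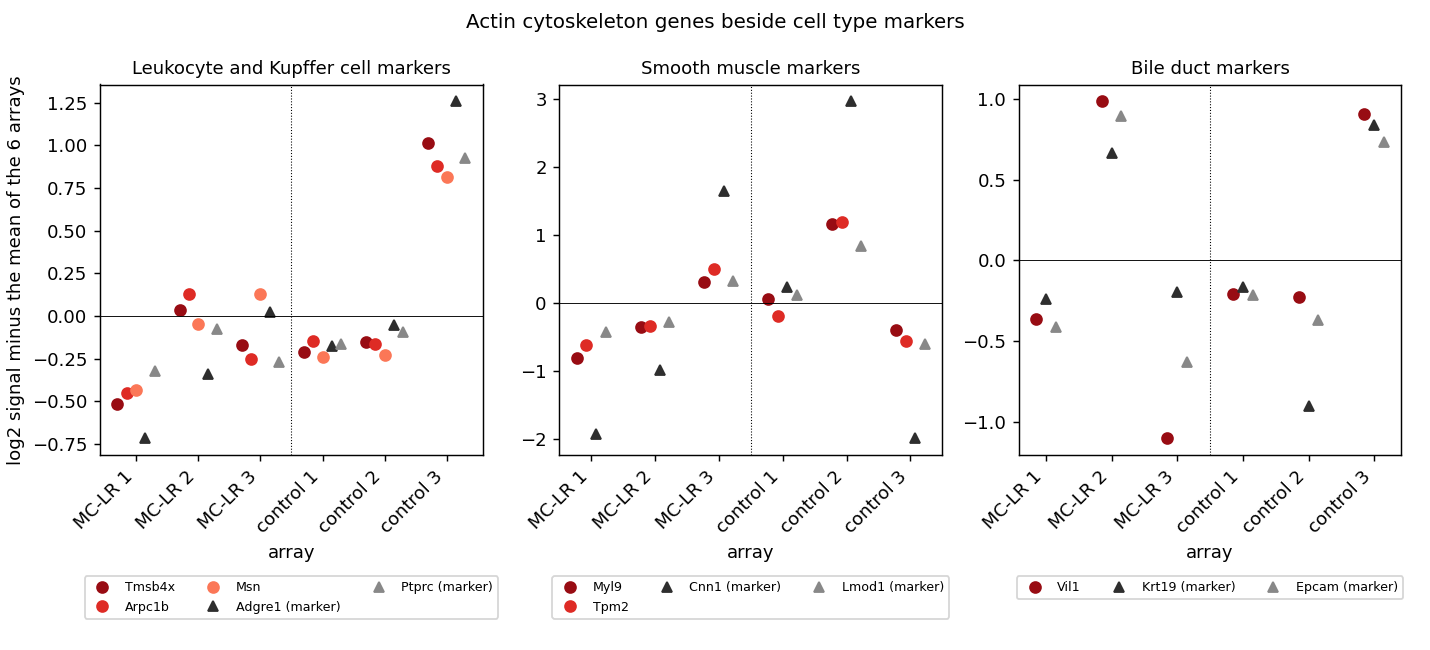
Log2 signal minus the gene's mean over the 6 arrays for 6 actin cytoskeleton genes (circles) and 6 cell type markers (triangles), by liver, MC-LR left. Tmsb4x, Arpc1b and Msn are highest in control 3 with Adgre1 and Ptprc, Myl9 and Tpm2 are highest in control 2 with Cnn1 and Lmod1, and Vil1 is high in MC-LR 2 and control 3 with Krt19 and Epcam.

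The remaining marker lists gave these sums. Over all genes, 5.36% were lower and 7.5% higher at an unadjusted p under 0.05. Endothelial markers (10 of 10 measured) had 21460 to 27240 in MC-LR livers and 23560 to 35590 in control livers, and 2 of the 10, Pecam1 and Cdh5, were lower at an unadjusted p under 0.05. Platelet and erythroid markers (8 of 11 measured) had 46620 to 55100 in MC-LR livers and 51230 to 81000 in control livers. At that p 3 were lower, the platelet genes Gp9, Ppbp and Pf4, and 1 was higher, the erythroid gene Klf1. Stellate cell and fibroblast markers (12 of 12) had 78250 to 94270 in MC-LR livers and 79690 to 100900 in control livers, with 1 higher. Hepatocyte markers (9 of 10) had 714100 to 780100 in MC-LR livers and 789200 to 857700 in control livers, with 1 lower, Fgb, which differed by -0.50. Alb and Fgb had the largest signals in that sum, and Alb differed by 0.11. Alb in MC-LR 1 and 2 and Fgb in control 1 all stood at 18.2045, because quantile normalization gives equal ranks equal values. Of the 9 hepatocyte markers, 4 were above 0 and 5 below, with a median of -0.05. Skeletal muscle markers were near the bottom of the scale, at 278.1 to 306.5 in MC-LR livers and 299.4 to 323.5 in control livers, with Myh4, Ckm and Actn3 not above the filter.

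**Figure D5:**
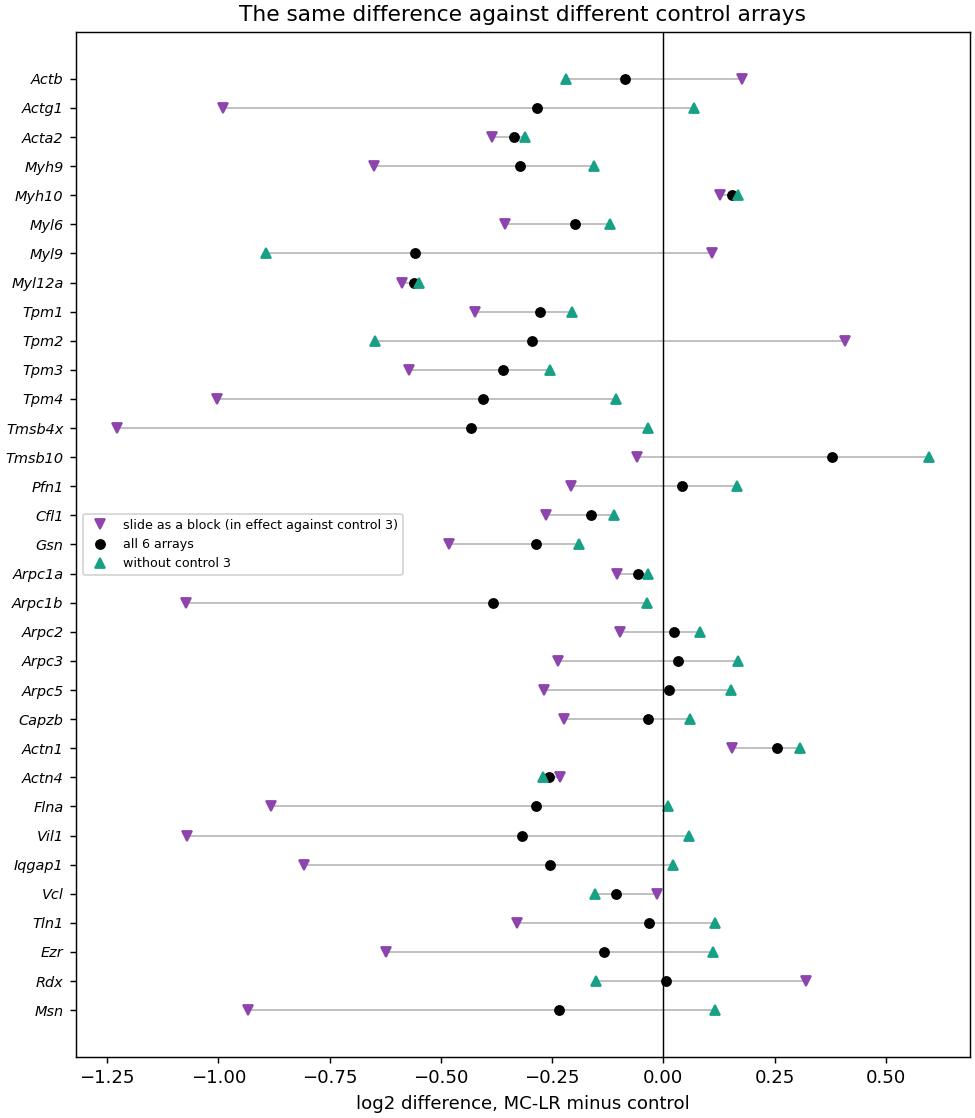
Log2 difference (MC-LR minus control) of the 33 genes against all 3 controls (black circles), without control 3 (green, pointing up) and with slide as a block (purple, pointing down). Acta2, Myl12a, Actn4, Actn1 and Myh10 stay on one side of 0, while Tmsb4x runs between -1.23 and -0.04 and Myl9 between -0.89 and 0.11.

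Over the 20 alternatives run for single genes, 13 of the 33 genes were below 0 in every setting and 2, Myh10 and Actn1, above 0 in every setting, while the other 18 took both signs. None of the 33 passed the adjusted threshold in any setting, and the smallest adjusted p was 0.0540, for Acta2. Further probes were on the array for 19 of the genes with a passing probe, and of those 25 passing probes 18 lay in the direction of the probe used. The opposite ones belonged to Acta2, Tpm3, Cfl1, Capzb, Vcl, Rdx (-0.12) and Msn (0.02). Of all 34 genes, Zyx included, 15 had a single probe.

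Many cytoskeletal genes are regulated by serum response factor (SRF), which binds a short sequence called the CArG box and whose coactivators are held back by free actin monomers. Of the 33 genes with a promoter window in the RefSeq table (GRCm38.p6, 250 bases before to 50 after the start), 5 held an exact CArG box on either strand (15.2%), against 1.81% of all 27025 genes with a window. Only CC, a run of A or T, and GG counted, so boxes with other letters or outside the window were missed. The boxes are shown with 15 bases on each side because the 5 genes differ in how their signals lie across the livers. Capitals mark the box.
Actg1, chr11:120348561-120348600 (-): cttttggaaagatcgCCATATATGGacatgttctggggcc
Myl6, chr10:128493035-128493074 (-): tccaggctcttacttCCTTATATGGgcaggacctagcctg
Myl9, chr2:156775288-156775327 (+): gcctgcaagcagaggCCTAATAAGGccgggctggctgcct
Vcl, chr14:20929156-20929195 (+): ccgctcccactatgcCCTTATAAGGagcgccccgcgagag
Vil1, chr1:74409296-74409335 (+): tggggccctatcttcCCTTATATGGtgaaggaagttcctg
These 5 genes differed by -0.28 (Actg1), -0.20 (Myl6), -0.56 (Myl9), -0.11 (Vcl) and -0.32 (Vil1). Each was below 0, as were 25 of the 33 genes compared, and none reached an unadjusted p under 0.05. Actg1, Myl6 and Vil1 were higher in control 3 than in controls 1 and 2, and Myl9 and Vcl were lower. The letters CATTCC on either strand, the core of the site for TEAD factors, were found in 9 of the 33 windows (27.3%), against 16.6% of all genes. A match of letters is a description and shows no binding.

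Genes of the same pathways outside the 34 were read from 8 lists by function, of which 128 of 135 genes were measured. None of the 128 passed the adjusted threshold (limma). At an unadjusted p under 0.05, 6 were higher, against 7.5% of all genes, and 8 lower, against 5.36%, so the counts lay near the shares over all genes. The median difference was -0.10, or 0.02 without control 3. Control 3 was the highest array for 74 of the 128, against 21.1% of all genes.

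Among filament nucleators, 1 of 10 measured genes was higher and 2 lower at an unadjusted p under 0.05. Of all genes, 7.5% were higher and 5.36% lower at that p. Fmnl2, a formin, had 9.51, 9.68 and 9.67 in MC-LR livers, against 10.21, 10.12 and 10.20 in control livers, a difference of -0.56 ± 0.10 (SE, adjusted p = 0.209, limma). The groups were apart and control 3 was like the other controls. Diaph1, a further formin, differed by -0.36 ± 0.09 (SE, adjusted p = 0.271). Among 14 genes of the Arp2/3 complex and its activators none reached an unadjusted p under 0.05. Wasl differed by 0.24 and Wasf2 by -0.22, the pair with the smallest p there.

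Of 18 further severing, capping and monomer-binding genes, 1 was lower at an unadjusted p under 0.05, against 5.36% of all genes. Of the same list Tmod1, which caps the slow-growing end of filaments, is among the 6 higher genes, but it passed the background filter through the MC-LR arrays alone and so had to differ. It had signal clearly over background in the 3 MC-LR livers and in no control liver, and stood at least 2.74-fold higher in MC-LR livers (measured means 4.85 in MC-LR livers and 1.52 in control livers, adjusted p = 0.209, limma). Pfn2, a profilin, differed by -0.46 ± 0.12 (SE). Of 18 crosslinking and membrane-linking genes, 2 were higher and 0 lower, against 7.5% and 5.36% of all genes. Flnc, the muscle filamin, had 5.74, 5.37 and 5.61 in MC-LR livers, against 4.10, 4.53 and 4.11 in control livers. That was a difference of 1.33 ± 0.17 (SE), or 2.51-fold, with the groups apart, and it did not pass (adjusted p = 0.156, limma). Nf2, the gene of merlin, differed by 0.33 ± 0.12 (SE).

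Of 18 further focal adhesion genes, 2 were higher and 2 lower at an unadjusted p under 0.05. Of all genes, 7.5% were higher and 5.36% lower at that p. Lpp, a relative of zyxin, differed by -0.35 ± 0.10 (SE), and Ilk, integrin-linked kinase, by 0.30 ± 0.10 (SE). Of 17 other myosins, light chains and phosphatase subunits, 1 was lower, against 5.36% of all genes. The lower gene was Ppp1r12a, the subunit that targets the phosphatase to myosin, at -0.26 ± 0.10 (SE), followed by Myo1e at -0.25 ± 0.14 (SE). Of 14 genes in the list of SRF, its coactivators and targets, 13 were below 0, against 51.4% of all genes, with a median of -0.26. That median was -0.22 without control 3 and -0.53 with slide as a block. At an unadjusted p under 0.05, 1 was lower, against 5.36% of all genes. Itga1, an integrin chain, differed by -0.29 ± 0.11 (SE), and Tuft1 by -0.31 ± 0.14 (SE).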

How the data were processed

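The sample titles give the group and number of each array. The authors deposited scanner files of spot intensity, written by Agilent Feature Extraction (version 10.7 in the submitters' processing notes). The processed intensity, per the file headers, is background-subtracted and detrended, and the headers name mm9 for probe coordinates. The authors also deposited a table of quantile-normalized log2 values, per the design text, used as an alternative: the rule for the genes names it, and its median over the 33 genes was -0.23 as well.

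Processed signals under 1 were set to 1 and put on a log2 scale, spots with outlier flags were left out, spots of a probe were averaged, and arrays were quantile normalized over 41174 probes, 30 of which lacked a value on some array. A probe had to be well above background on all 3 arrays of a group (28487 probes, 18901 genes, highest-mean probe per gene). Probes were named through RefSeq accessions (27610) or symbols (6054), or kept the file's name (7446). The test was limma's moderated one, version 3.58.1 under R 4.3.3 (two-sided, by lmFit and eBayes, 4 residual and 2.05 prior degrees of freedom, Benjamini-Hochberg, threshold 0.05). The small number of arrays limits the precision. In simulated data with 200 changed genes among 18901, the test recovered 48.4% of changes of 1 and 78.6% of changes of 2 on the log2 scale, with 5.07% false calls. A probe at background on every array of a group is given by a bound, from the mean of the higher of its own value and the lowest value well above background on each array.

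The genes, lists and markers were chosen with earlier results of these data known. Values by array are given for the actins, for genes at an unadjusted p under 0.05 or with groups apart, and for others where livers differed most, which were picked after seeing them. Of each pathway list the 2 genes with the smallest p are named, except 1 list that enters the totals and is not reported here by itself. Same-numbered arrays of the groups correlated at 0.19, -0.32 and -0.20 in their deviations, and the main test used no pairing. Such correlations cannot show whether the mice were paired. Alternatives changed scaling, background correction, filter, probe choice, slide, variance model and the arrays used.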

Additional observations from a re-analysis of the deposited data

How the results depend on the processing

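None of the 33 actin cytoskeleton genes passed the adjusted threshold under any alternative run. In the single-gene values, 55 of 660 alternative differences changed sign, over 18 genes, none of them past the threshold. The number of the 33 genes at an unadjusted p under 0.05 was 3, and became 6 with normexp background correction, 12 with slide as a fixed block, 6 with slide as a random block (correlation 0.356), 10 on slide 2 alone, 5 with a trended and robust variance, 5 with array weights, and 2 to 5 when 1 array was left out (5 without control 3). With normexp 5 of these were lower and 1 higher, with array weights 3 lower and 2 higher, and without control 3, 3 lower and 2 higher. With slide as a fixed or random block, and with the trended and robust variance, all were lower. Shares of all genes are given above for the main fit, the fixed block and without control 3 only. The counts of the other settings thus have no background to be read against. The median difference of the 33 genes was -0.23 in the main fit. It lay between -0.26 and -0.04 when 1 array was left out, with -0.0353 without control 3, and between -0.33 and -0.08 otherwise. The replicate block gave 2 genes of the 33 at an unadjusted p under 0.05 and no gene past the threshold. Over all genes, the 3 past the threshold became 1 with 75th percentile scaling, median scaling, normexp or a strict filter, 5 with no filter, 15 with slide as a fixed block, 0 on slide 2 alone, 0 with the replicate block, 892 with array weights, and 1 to 50 when 1 array was left out (1 without MC-LR 1, 50 without control 3). Of the pathway lists, 3 genes passed with array weights and 0 otherwise. Keeping flagged spots was added after seeing the data and changed none of these counts. The cause of these changes was not tested. With 3 livers a group, with controls 1 and 2 on a slide without MC-LR arrays, and with whole-liver RNA, the array cannot place small differences in a cell type, and signals near background give bounds only.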
